A study of Mus musculus with 44 samples.

Results

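Primordial germ cells (PGC) of the mouse, from which eggs and sperm derive, were compared between ovary and testis on the first days on which the gonads of the sexes differ. The comparison took 8 of the 44 arrays of the series: 4 arrays of female PGC and 4 of male PGC, with 2 arrays of each sex at embryonic day (E) 12.5 and 2 at E13.5. The arrays were chosen by sex and age as their titles give them, but the comparison was chosen with earlier results of these data known. The female cells are called ovarian and the male cells testicular here. All cells had been purified by fluorescence-activated sorting, and RNA of each sample was amplified, labelled with biotin and hybridized to a MouseRef-8 v2 beadchip, an array of 25697 probes. The labels used here give no strain, sorting marker or number of pooled embryos, and no treatment or engineered allele for these PGC. In the series' design text the duplicates are biological, but its protocol also allows technical ones, so the p-values measure only the spread between these arrays.

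As background, germ cells reach the gonad with a potential for either fate, and signals from the somatic cells around them set the direction. In the ovary, retinoic acid and bone morphogenetic proteins (BMP) lead to the expression of Stra8 and to entry into meiosis, the division that makes haploid cells. In the testis, retinoic acid is degraded, and fibroblast growth factor and the Nodal and activin ligands act on the germ cells, which stop dividing, express Nanos2 and later restore DNA methylation.

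Levels are normalized log2 intensities, so that a difference of 1 is 2-fold, and each difference is the ovarian minus the testicular mean, averaged over both days. A gene was called when the adjusted p was under 0.05 and the difference at least 2-fold. A probe counted as detected on an array at a detection p under 0.01. Where a gene was detected on none of the 4 arrays of a sex, its fold is a lower bound, computed against the lowest level of any detected probe on each array, which lay between 5.42 and 5.90. A fitted difference, a change between days or a list median that includes such a gene is no bound, and it depends on the background correction. X- and Y-linked genes (274 that passed the filter) were left out.

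The arrays matched their label as germ cells. Of 10 autosomal markers of germ cell identity with a probe, 8 to 9 were detected on each ovarian array and 9 on each testicular array, and Dazl, an RNA-binding protein of germ cells, lay between 11.80 and 12.08 on all 8 arrays. The summed level of these markers was not even between the sexes: it was 33371 and 33089 on the E12.5 ovarian arrays and 23020 and 20091 at E13.5, against 38002 to 43739 on the testicular arrays. Dppa5a, Dppa3, Pou5f1 and Sall4 among them are also on the pluripotency list. Of the 9 tested only Nanos3 and Dppa3 were called, both higher in testicular PGC, while Dazl, also among the brightest, was not. The part of this difference in the results below was not tested. Between 36.0% and 41.2% of probes were detected per array, replicate arrays correlated at 0.976 to 0.981 over the genes tested, and the replicate standard deviation was 0.28 to 0.32. With 2 arrays per group, precision is limited by their number. The E13.5 arrays were brighter, with an upper quartile of intensity of 112.7 to 170.2 against 99.4 to 109.8 at E12.5, and the highest of each sex were E13.5 ovarian replicate 2 and E13.5 testicular replicate 1.

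Markers of gonadal somatic cells moved with sex. Sertoli cells are the supporting cells of the testis, and 5 to 7 of 15 of their markers were detected on the testicular arrays against 2 to 3 on the ovarian arrays. Their summed intensity was 1570 to 3498 in testicular and 1159 to 1352 in ovarian arrays, and much of it came from Aard, at 9.19 or above on all 8 arrays. Of 8 Sertoli markers tested, 5 were called higher in testicular samples (Cst9, Dhh, Clu, Wt1 and Ptgds), and Sox9, Fgf9 and Nr5a1 were detected on none of the 8 arrays. The calls of Wt1 and Ptgds were lost without any of 3 arrays each, as their differences then fell within 2-fold (-0.97 to -0.91 for Wt1, without E12.5 ovarian replicate 2, E13.5 ovarian replicate 1 or E12.5 testicular replicate 1, and -0.96 to -0.93 for Ptgds, without either of the same ovarian arrays or E12.5 testicular replicate 2). Both were within 2-fold as well with cyclic loess, median scaling, an offset of 50 and normalization over the 8 arrays alone, at -0.93 to -0.85 for Wt1 and -0.54 to -0.38 for Ptgds. Dhh, a hedgehog ligand that Sertoli cells secrete, was at 7.68 and 7.60 on the E12.5 testicular arrays and at 6.63 and 6.07 at E13.5, and was detected on no ovarian array. The summed Sertoli level was thus lower at E13.5 than at E12.5 in testicular samples.

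Pregranulosa cells are the ovarian counterpart, and their 10 markers summed to 591 to 662 in ovarian and 255 to 348 in testicular arrays. This rested mainly on Irx3, a homeobox gene, at 8.27 to 8.65 in ovarian and 4.53 to 5.60 in testicular arrays, while Foxl2, the defining gene, was detected on none. Of 14 markers of interstitial and mesonephric mesenchyme, 0 to 2 were detected on ovarian and 2 to 6 on testicular arrays, with sums of 383 to 473 and 497 to 866. Erythroid markers summed to 325 and 359 on the E12.5 ovarian arrays and to 3648 and 3658 on the E12.5 testicular arrays, but at E13.5 to 997 and 1742 against 2057 and 897. Hba-a1, an alpha globin, thereby had a called difference of -1.85 over both days, with -3.59 at E12.5 and -0.12 at E13.5, and lost its call when sex and day were additive terms (adjusted p = 0.054). Of 8 endothelial markers, 1 to 3 were detected per array, and their sums moved with the day and not the sex, at 969 to 1229 at E12.5 and 403 to 502 at E13.5. This rested mainly on Pecam1, at 9.53 to 9.95 at E12.5 and 7.46 to 8.16 at E13.5. Among the other endothelial markers, only Eng was detected on more than 1 array. The part of these other cells in the results below was not tested, and in bulk samples fewer cells of a type and less RNA per cell cannot be told apart.

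**Figure D1:**
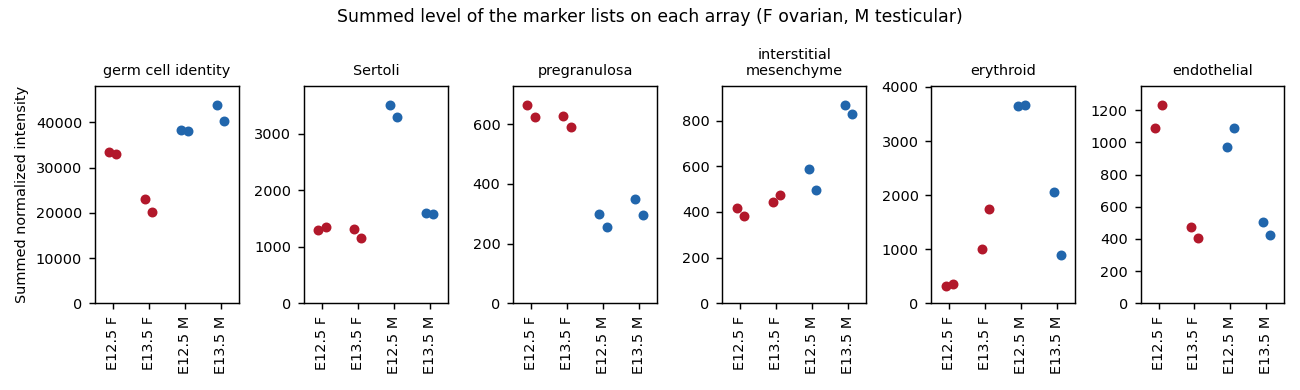
Summed normalized intensity (linear scale, from 0) of 6 marker lists on each array, with ovarian arrays (F) in red and testicular arrays (M) in blue. Sertoli markers stand highest on the E12.5 testicular arrays, pregranulosa markers on the 4 ovarian arrays, and erythroid markers on the E12.5 testicular arrays.

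Of 7604 autosomal genes tested, 704 (9.26%) were called higher in ovarian and 600 (7.89%) in testicular PGC. The count of members called in each list below is to be read against these shares. An unadjusted p under 0.05 was reached by 4116 genes, and the median difference over all genes was -0.01. The 4 ovarian arrays lay wholly above the 4 testicular ones for 1129 genes (14.8%) and wholly below for 1143 (15%). Of the 704 genes, 112 differed by more than 4-fold and 21 by more than 8-fold, and of the 600 genes 84 and 22 did. The number of calls depends on the background correction: with none, which compresses low levels, 142 and 132 genes were called.

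Among the genes higher in ovarian PGC, the largest differences were those of Sct, Phlda2, Gata2, Cdx2, Rec8, Dlx3, Msx1, Id1, M1ap and Dmrtc2. Sct, which encodes the hormone secretin, was at 11.21 and 11.19 in ovarian PGC at E12.5 and at 11.44 and 11.23 at E13.5, against 6.23 and 6.61 and then 4.95 and 5.10 in testicular PGC. Every ovarian array thus stood more than 4 log2 units above every testicular one. The difference of Sct was 5.54 (SE 0.13, n = 4 arrays per sex, adjusted p = 2.35e-06 by limma). Phlda2, an imprinted gene that restrains placental growth, was at 12.15 and 12.18 and then 11.28 and 11.38 in ovarian PGC, and between 6.05 and 6.72 on the testicular arrays (difference 5.43, SE 0.18, adjusted p = 4.08e-06). At E11.5, when the labels give the sex as undefined, 2 further arrays had Phlda2 at 10.92 and 11.32, near its ovarian and not its testicular level. Dlx3, a homeobox gene, was at 8.50 to 9.37 on the ovarian arrays and not detected on the testicular ones, at least 9.75-fold higher (adjusted p = 2.35e-06).

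Among the genes higher in testicular PGC, the largest differences were those of Lefty2, Lefty1, Egr4, Otx2, Cst9, Nanos2, Defb19, Krt17, Cbr3 and Vstm2l. Cst9 is on the Sertoli list, and its levels were 9.63 and 9.47 at E12.5 and 8.02 and 8.31 at E13.5 in testicular samples, against none detected in ovarian ones. Krt17, a keratin, was at 7.62 and 7.45 and then 9.78 and 9.72 in testicular samples and detected on no ovarian array, at least 7.97-fold higher in testicular samples (adjusted p = 2.35e-06). Vstm2l, a gene of the immunoglobulin superfamily, was detected on all 8 arrays, at 7.52 and 7.59 and then 6.23 and 6.12 in ovarian PGC against 10.47 and 10.33 and then 11.15 and 11.15 in testicular PGC. Its levels moved apart from E12.5 to E13.5 in opposite directions, and the difference averaged -3.91 (SE 0.11, adjusted p = 2.35e-06).

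**Figure D2:**
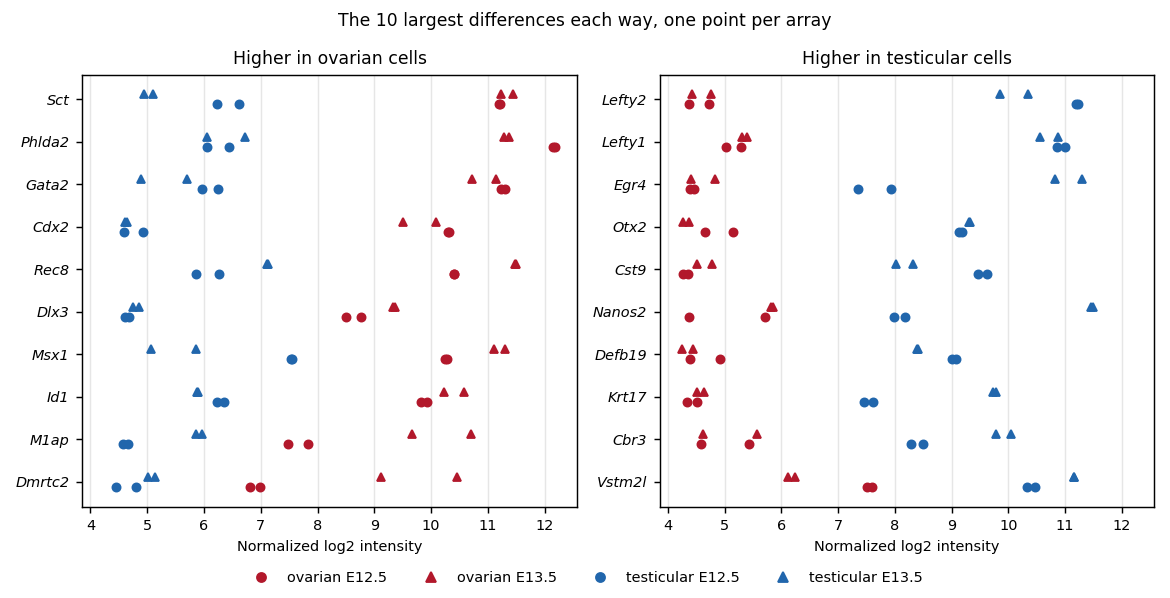
Normalized log2 intensity of the 10 genes with the largest differences each way, with a point for each array, ovarian in red, testicular in blue, circles for E12.5 and triangles for E13.5. The 4 ovarian and the 4 testicular arrays do not overlap for any of these genes, as the rule that chose them required.

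Genes of meiotic entry were higher in ovarian PGC. Of the 9 genes listed, 4 were tested, and 3 of them were called higher in ovarian PGC and none in testicular PGC, with a median difference of 2.86 (2.21 with Stra8 at its bound) against -0.01 over all genes. Stra8, the gatekeeper of meiosis that retinoic acid induces, was at 7.05 and 6.52 at E12.5 and at 8.59 and 9.01 at E13.5 in ovarian PGC. It was detected on none of the 4 testicular arrays and neither of the E11.5 arrays, and was at least 4.24-fold higher in ovarian PGC (adjusted p = 3.38e-05). Its difference was larger at E13.5 than at E12.5 by 1.94 (SE 0.34, adjusted p = 0.0212). This change, like every other one tested, was not called without both brighter E13.5 arrays. That fit has a single array of each sex at E13.5, so a lost change and lost precision cannot be told apart. Rec8, the meiotic cohesin subunit that holds sister chromatids together, was at 10.41 and 10.40 and then 11.49 and 11.49 in ovarian PGC. In testicular PGC Rec8 was detected on all arrays at much lower levels, of 5.86 and 6.26 and then 7.10 and 7.13 (difference 4.36, SE 0.12, adjusted p = 2.82e-06). The Rec8 difference was 4.34 on the first day and 4.38 on the second, as both sexes stood higher at E13.5 by about the same amount. Ugt8a, a galactosyltransferase of the list, was at 8.55 and 8.35 and then 10.27 and 10.13 in ovarian PGC against 7.41 and 7.26 and then 6.82 and 6.44 in testicular PGC. Dazl was not called, with a difference of 0.14.

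The promoters of Stra8 and Rec8 are shown because these genes mark the ovarian fate, and were chosen after matches had been seen. Each run is 250 bases before to 50 after the RefSeq start on GRCm38.p6, 5′ to 3′ on the gene's strand. Capitals in Stra8 (chr6:34920698-34920997, plus strand) mark AGGTCA, the core letters of the sites that nuclear receptors such as the retinoic acid receptors bind, and in Rec8 (chr14:55617916-55618215, plus strand) TCCCGC, the core of E2F sites.
Stra8: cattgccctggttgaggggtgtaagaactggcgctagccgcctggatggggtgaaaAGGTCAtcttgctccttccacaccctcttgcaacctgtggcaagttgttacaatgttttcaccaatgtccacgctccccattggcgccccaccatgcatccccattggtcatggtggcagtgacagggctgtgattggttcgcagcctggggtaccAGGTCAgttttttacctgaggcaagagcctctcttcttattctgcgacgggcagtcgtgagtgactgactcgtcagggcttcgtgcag
Rec8: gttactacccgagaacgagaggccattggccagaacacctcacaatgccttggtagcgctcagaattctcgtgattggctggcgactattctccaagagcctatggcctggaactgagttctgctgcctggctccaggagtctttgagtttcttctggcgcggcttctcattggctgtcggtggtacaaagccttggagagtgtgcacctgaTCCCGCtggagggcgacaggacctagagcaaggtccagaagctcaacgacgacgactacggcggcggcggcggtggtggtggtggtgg
The Stra8 window holds AGGTCA at 2 places, which begin at positions -194 and -38 from the start, and the Rec8 window holds 1 TCCCGC, which begins at position -38. Either motif is common: AGGTCA was found on either strand in 14.5% of the 6256 tested genes with a promoter and TCCCGC in 42.0%. Among genes higher in ovarian PGC the shares were 14.5% and 46.5% of 579 genes, and among genes higher in testicular PGC 15.5% and 35.9% of 471. A match is a description of letters and shows no binding.

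The chromosome axis and recombination genes followed in part. Of 7 tested axis and synaptonemal complex genes (of 14 listed), 4 were called higher in ovarian PGC (Rec8, Smc1b, Hormad2 and Stag3), none in testicular PGC, and the median difference was 1.06. Smc1b, the cohesin partner of Rec8, was at 10.26 and 10.43 and then 11.31 and 11.66 in ovarian PGC, and at 8.83 and 9.62 and then 9.11 and 9.49 in testicular PGC. Stag3, another meiotic cohesin gene, was high in both sexes (11.39 to 12.37 against 10.62 to 10.98) and differed by 1.06 (SE 0.11, adjusted p = 4.58e-04). Without both brighter E13.5 arrays the Stag3 difference was 0.99, just within 2-fold. Sycp1, a synaptonemal complex protein, was low on all arrays, with its highest value, 6.46, on an E13.5 ovarian array, and did not pass the test (difference 0.57). Sycp3, Sycp2 and Hormad1 were detected on none of the 8 arrays.

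Of 10 tested recombination genes (of 24 listed), 7 were called higher in ovarian PGC and none in testicular PGC, with a median difference of 0.16 at E12.5 and 2.48 at E13.5. Over both days it was 1.3003, or 0.74 with the 3 members below detection in 1 sex at their bound. Prdm9, the histone methyltransferase that places recombination hotspots, was at 6.38 and 6.55 at E12.5 and at 9.09 and 9.73 at E13.5 in ovarian PGC, and detected on 1 of 4 testicular arrays. The difference was 2.59 (SE 0.23, adjusted p = 2.18e-04). Spo11, which makes the breaks, was detected in both sexes, at 9.42 to 10.64 in ovarian and 8.53 to 9.36 in testicular PGC. Its difference of 1.05 (adjusted p = 0.00317) fell to 0.89 without E13.5 ovarian replicate 2 and to 0.93 without E13.5 testicular replicate 2, both within 2-fold, and without both brighter E13.5 arrays it was just within 2-fold too (0.9998). Spata22, a partner of the single-strand binding protein Meiob, was not detected at E12.5 in either sex and reached 8.71 and 9.54 in ovarian PGC at E13.5. M1ap, a meiotic gene that male mice need for fertility, was at 7.83 and 7.48 and then 9.67 and 10.71 in ovarian PGC, and Msh4, of the crossover pathway, at 7.30 and 7.21 and then 7.92 and 7.92. In testicular PGC M1ap was at 4.58 and 4.67 and then 5.85 and 5.97, and Msh4 was detected on 1 array. Thus Msh4, M1ap and Prdm9 were already detected in ovarian PGC at E12.5, and Spata22 and Mei1 at E13.5.

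Of 14 genes known from the oocyte, 4 were tested, and 1 was called each way. The transcription factors Figla, Sohlh1 and Sohlh2 were among them, and the zona genes Zp1, Zp2 and Zp3 were not. Figla, which activates the genes of the egg coat, was at 6.25 and 6.57 at E12.5 and at 8.78 and 9.27 at E13.5 in ovarian PGC and detected on no testicular array, at least 4.03-fold higher in ovarian PGC (adjusted p = 5.48e-05). Nlrp5, known as a maternal-effect gene of the oocyte, differed the other way. It was detected on no ovarian array and was at 6.40 and 6.28 and then 8.04 and 8.52 in testicular PGC, at least 3.16-fold higher there (adjusted p = 3.38e-05).

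Targets of BMP signalling were among the largest differences. Of 9 tested BMP response genes (of 13 listed), 7 were called higher in ovarian PGC, 1 in testicular PGC, and the median difference was 2.04, or 1.55 with the members below detection in 1 sex at their bound. Gata2, a transcription factor that BMP induces in ovarian germ cells, was at 11.23 and 11.31 and then 11.15 and 10.73 in ovarian PGC against 5.96 and 6.24 and then 5.70 and 4.89 in testicular PGC (difference 5.41, SE 0.21, adjusted p = 9.42e-06). Msx1, a homeobox gene, was at 10.27 and 10.24 and then 11.30 and 11.12 in ovarian PGC, against 7.54 and 7.55 and then 5.86 and 5.07 in testicular PGC. The Msx1 difference was 2.72 at E12.5 and 5.74 at E13.5, and the change of 3.03 passed the test (SE 0.36, adjusted p = 0.0107). Id1, an inhibitor of basic helix-loop-helix factors and a direct BMP target, was at 9.82 to 10.59 on the ovarian and 5.87 to 6.36 on the testicular arrays (difference 4.06, SE 0.12). Id3 and the inhibitory Smad6 were also higher in ovarian PGC, with differences of 2.20 and 1.21. Msx2 and Id2, detected on no testicular array, were at least 2.93-fold and 2.26-fold higher in ovarian PGC. Hey1, a Notch and BMP target, was higher in testicular PGC (difference -1.87, adjusted p = 9.14e-05). The ligand gene Bmp2 was detected on none of the 8 arrays.

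Among Wnt response genes, of 7 tested (of 13 listed), Cdx2, Notum and Axin2 were called higher in ovarian PGC and none in testicular PGC, with a median of 0.83. Cdx2, a caudal homeobox gene downstream of Wnt, was at 10.32 and 10.30 and then 10.08 and 9.50 in ovarian PGC and detected on no testicular array, at least 20.3-fold higher in ovarian PGC (adjusted p = 2.87e-06). Axin2, a feedback inhibitor that reports Wnt activity, was at 10.60 and 10.50 and then 10.45 and 10.00 against 8.69 and 8.52 and then 9.03 and 8.60 (difference 1.68, SE 0.16, adjusted p = 2.68e-04). Notum, a secreted Wnt inhibitor, was at 7.61 to 8.42 on the ovarian arrays and detected on 1 testicular array. Sp5, another Wnt target, did not differ by the test, at 9.34 to 10.40 in ovarian and 9.31 to 10.35 in testicular PGC (difference 0.01, SE 0.12, adjusted p = 0.931), and at E11.5 it was at 5.96 and 7.41. The homeobox list as a whole had 11 of 26 genes tested, of which Cdx2, Msx1 and Msx2 were higher in ovarian PGC and Otx2 in testicular PGC.

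The promoter of Cdx2 is shown because, among the 19 called reference genes with a RefSeq promoter, it alone held a match to any of the FOXH1, EGR, TCF/LEF and octamer motifs searched on both strands (AATCCACA, GCGTGGGCG, CTTTGAT and ATGCAAAT). The window is chr5:147307200-147307499 on GRCm38.p6, minus strand, and the capitals mark the octamer, the letters that Oct4 binds, which begin at position -147 from the start.
Cdx2: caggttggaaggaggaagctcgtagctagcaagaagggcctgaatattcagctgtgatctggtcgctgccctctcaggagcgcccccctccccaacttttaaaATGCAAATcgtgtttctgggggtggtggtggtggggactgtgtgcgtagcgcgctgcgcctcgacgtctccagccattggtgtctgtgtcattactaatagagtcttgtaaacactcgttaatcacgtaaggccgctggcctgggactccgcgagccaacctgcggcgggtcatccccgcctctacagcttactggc
The octamer was found in 1.61% of the tested genes with a promoter, in 0.691% of those higher in ovarian PGC (4 genes) and in 2.97% of those higher in testicular PGC (14 genes). The shares of FOXH1 and EGR matches were 0.691% and 1.38% for genes higher in ovarian PGC and 0.849% and 1.70% for genes higher in testicular PGC, against 0.591% and 1.55% of all genes. TCF/LEF matches stood at 2.94%, 3.18% and 2.89% in the same order. The E-box CACGTG was found in 8.81% of promoters of genes higher in ovarian PGC, 15.3% of those higher in testicular PGC and 12.3% of all.

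Retinoic acid genes were split. Of 8 tested (of 18 listed), Crabp1 and Rarb were called higher in ovarian PGC and Rara in testicular PGC. Crabp1, a retinoic acid binding protein, was at 7.02 and 6.86 and then 7.33 and 7.50 in ovarian PGC and detected on 1 testicular array (difference 1.92, SE 0.32, adjusted p = 0.00278). Without both brighter E13.5 arrays the Crabp1 difference was 1.83 and did not pass (adjusted p = 0.0531 by limma). Rarb, a receptor that retinoic acid induces, was detected on 3 of 4 ovarian and no testicular arrays, at least 1.11-fold higher in ovarian PGC, and another Rarb probe was not called (0.87). Rara was near background in testicular PGC (5.79 to 6.49) and detected on no ovarian array, at least 1.47-fold higher in testicular PGC, and its call was lost without E13.5 ovarian replicate 2. Both calls were lost with cyclic loess, median scaling, an offset of 50 and normalization over the 8 arrays alone, with fitted differences of 0.58 to 0.66 for Rarb and -0.66 to -0.62 for Rara. The genes that degrade retinoic acid, Cyp26a1 and Cyp26b1, were detected on none of the 8 arrays.

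Nodal and activin signalling gave the largest differences toward testicular PGC. Of 9 tested genes (of 15 listed), 4 were called higher in testicular PGC (Lefty2, Lefty1, Nodal and Gdf3), none in ovarian PGC, and the median difference was -0.40. Lefty2, a secreted inhibitor of Nodal that Nodal itself induces, was at 11.20 and 11.22 and then 10.34 and 9.85 in testicular PGC and detected on no ovarian array. Lefty1, its close relative, was at 10.99 and 10.86 and then 10.88 and 10.55 in testicular PGC and detected on no ovarian array either. The levels were at least 32.0-fold and 36.0-fold higher in testicular PGC (adjusted p = 2.35e-06 for each). At E11.5 Lefty2 was at 10.34 and 10.76 and Lefty1 at 9.25 and 9.44, so that both were detected before the sexes were told apart. Nodal, the ligand, was at 6.12 and 5.68 at E12.5 and at 4.76 and 4.46 at E13.5 in ovarian PGC, where only the first was detected, against 7.56 and 7.68 and then 8.23 and 7.93 in testicular PGC. The Nodal difference was -2.59 (SE 0.15, adjusted p = 5.45e-05), and it moved by -1.74 between the days (adjusted p = 0.0209). The transducers Smad2, Smad3, Smad4, Acvr2b and Foxh1 were tested and not called. The co-receptor gene Tdgf1 was detected on none of the 8 arrays.

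Genes of fibroblast growth factor signalling and its ERK feedback were mostly higher in testicular PGC, at 7 of 12 tested (of 18 listed), with 1 higher in ovarian PGC and a median difference of -1.18. Egr4, an immediate transcription factor downstream of ERK, was at 7.34 and 7.93 at E12.5 and at 10.82 and 11.30 at E13.5 in testicular PGC and detected on no ovarian array, at least 12.99-fold higher in testicular PGC (adjusted p = 1.13e-05). Its difference moved by -3.22 between the days (SE 0.38, adjusted p = 0.0104). Dusp4, Dusp6, Etv5, Egr1, Etv4 and Fgfr2 were the others, with differences of -1.87, -1.39, -1.35, -1.20, -1.19 and -1.18. Dusp6, an ERK phosphatase and feedback inhibitor, was at 9.13 and 9.55 and then 8.27 and 7.53 in ovarian PGC against 10.33 and 10.42 and then 9.60 and 9.68 in testicular PGC. Another Dusp6 probe gave -0.69 and no call. The receptor gene Fgfr3 went the other way, at 7.45 to 8.06 on the ovarian arrays and below detection on the testicular ones, at least 4.01-fold higher in ovarian PGC (adjusted p = 3.15e-05), while Fgfr2 was higher in testicular PGC and Fgfr1 was not called.

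Among genes of the fetal male germ cell, 4 of 7 tested (of 11 listed) were called higher in testicular PGC and none in ovarian PGC, with a median of -0.21 at E12.5 and -2.60 at E13.5 (-1.55 over both days, or -1.36 with Dnmt3l at its bound). Nanos2, the RNA-binding protein that represses meiosis in the testis, was at 8.18 and 7.98 at E12.5 and at 11.46 and 11.49 at E13.5 in testicular PGC. In ovarian PGC Nanos2 lay at 5.72, 4.38, 5.83 and 5.85, close to the detection limit, and the difference was -4.33 (SE 0.27, adjusted p = 6.59e-05). Nanos3, which keeps PGC alive, was at 7.39 and 7.08 and then 5.75 and 5.32 in ovarian PGC and at 8.47 and 7.99 and then 9.60 and 9.79 in testicular PGC, with E11.5 arrays at 8.91 and 8.56. Dnmt3l, the cofactor of de novo DNA methylation, was at background in both sexes at E12.5 (4.37 to 5.07) and reached 9.70 and 8.86 in testicular PGC at E13.5. Dnmt3l was detected on no ovarian array and neither E12.5 testicular array, and at E13.5 it was at least 13.29-fold higher in testicular PGC. The fitted change between the days was -4.65 (SE 0.46, adjusted p = 0.00936). Piwil4, a Piwi protein of the fetal testis, was at 8.13 and 7.96 in testicular PGC at E13.5 and at 4.68 to 6.21 on the other 6 arrays (difference -1.55, SE 0.33, adjusted p = 0.00806). Of 10 piRNA pathway genes tested, Piwil4 alone was called, a share near the 7.89% of all genes called higher in testicular PGC.

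Pluripotency genes were called higher in testicular PGC for 7 of 18 tested (of 25 listed) and higher in ovarian PGC for none, with a median of -0.14 at E12.5 and -1.25 at E13.5. Nanog, a core factor, was alike in all E12.5 arrays (9.32 and 9.10 ovarian, 9.41 and 9.60 testicular) and at E13.5 stood at 7.07 and 6.59 against 9.58 and 9.63. Its difference moved by -2.47 between the days (SE 0.29, adjusted p = 0.0104). Utf1, a chromatin factor of pluripotent cells, was at 10.41 and 10.30 and then 9.26 and 8.41 in ovarian PGC and at 11.41 to 11.74 in testicular PGC (difference -2.002, SE 0.20, adjusted p = 3.32e-04). Pou5f1, which encodes Oct4, was at 11.65 and 11.57 and then 10.78 and 10.47 in ovarian PGC against 11.92 and 11.96 and then 12.30 and 12.14 in testicular PGC. Its difference of -0.96 (SE 0.12, adjusted p = 8.51e-04) stayed under 2-fold, but was past it without E13.5 ovarian replicate 1 (-1.04) or E13.5 testicular replicate 2 (-1.003). It was past 2-fold and called as well with cyclic loess (-1.13), median scaling (-1.25), normalization over the 8 arrays alone (-1.12) and the authors' deposited values (-1.098). Sox2 was higher in ovarian PGC by 0.60 at E12.5 and lower by 0.54 at E13.5, a change of -1.14 (adjusted p = 0.0353). Its levels were 9.80 and 9.68 and then 8.18 and 7.81 in ovarian PGC and 9.17 and 9.11 and then 8.48 and 8.59 in testicular PGC, so both sexes were lower at E13.5. Otx2, a homeobox gene of primed pluripotency, was at 9.13 to 9.33 in testicular PGC and detected on no ovarian array, at least 12.0-fold higher in testicular PGC (adjusted p = 2.87e-06). Dppa3, which protects methylation marks in the early embryo, was the brightest of the called members, at 11.56 to 12.39 in ovarian and 13.02 to 13.55 in testicular PGC (difference -1.31, adjusted p = 1.72e-04).

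**Figure D3:**
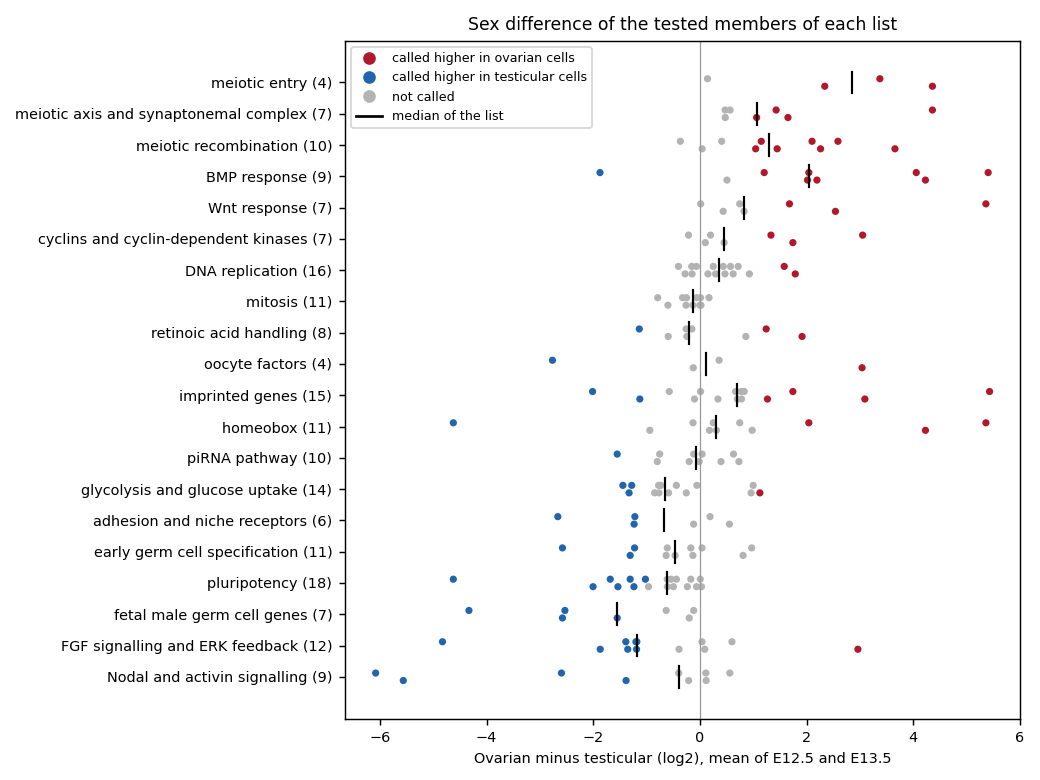
Ovarian minus testicular difference (log2, mean of both days) of each tested member of 20 lists, with the number tested in brackets, calls in red (higher in ovarian PGC) and blue (higher in testicular PGC), and a bar at the median. The meiotic and BMP lists have most of their members to the right of 0, and the FGF, fetal male and pluripotency lists to the left.

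Cell cycle genes were called for some cyclins and for few replication genes. Of 7 cyclin and kinase genes tested (of 14 listed), Ccnd1, Ccne2 and Ccne1 were called higher in ovarian PGC and none in testicular PGC. Ccnd1, the G1 cyclin D1, was at 10.24 and 10.20 and then 10.95 and 10.79 in ovarian PGC against 7.98 and 7.89 and then 7.09 and 7.02 in testicular PGC (difference 3.05, SE 0.11, adjusted p = 5.56e-06). Both other probes of Ccnd1 gave 3.09 and 3.21. Ccne1, the S-phase cyclin E1, was at 8.31 to 8.60 on the ovarian arrays, and at 7.89 and 8.17 at E12.5 and 6.48 and 5.98 at E13.5 on the testicular arrays. Ccne2 instead differed through the ovarian arrays, at 6.48 and 6.49 and then 9.16 and 9.29, against 5.81 to 6.31 on the testicular ones. Among 16 DNA replication genes tested, 2 were called higher in ovarian PGC, a share near the 9.26% of all genes, and 14 were not called. The 2 were Tk1 and Rrm2, which make nucleotides (differences 1.79 and 1.58), although a second Tk1 probe gave 0.35 with no call (adjusted p = 0.465). Of 11 mitosis genes tested 0 were called in either direction at both thresholds.

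In a list of cyclin-dependent kinase inhibitors and retinoblastoma family genes, 9 genes were tested, with Rb1 and Rbl1 from that family. Cdkn2d was called higher in ovarian and Cdkn1b in testicular PGC. Such shares are near the 9.26% and 7.89% of all genes called in those directions. Cdkn1b, or p27, which holds cells in G1, was at 5.67 and 6.56 and then 6.20 and 6.43 in testicular PGC and detected on no ovarian array, at least 1.48-fold higher in testicular PGC (adjusted p = 0.00277). The Cdkn1b call was lost with cyclic loess (-0.73), an offset of 50 (-0.80), median scaling (-0.73), normalization over the 8 arrays alone (-0.74) and no background correction (-0.39). Cdkn2b was not called (difference -0.39, adjusted p = 0.128). Cdkn1c, or p57, was high in all samples, at 11.20 to 11.64 in ovarian and 10.05 to 11.16 in testicular PGC, and its difference of 0.78 stayed under 2-fold. In the Bcl2 family the called share was near the 7.89% of all genes called higher in testicular PGC. Of 11 genes tested, Pmaip1 alone was called. It encodes Noxa, which promotes apoptosis, and was at 7.54 and 7.63 and then 8.01 and 8.68 in testicular PGC and detected on no ovarian array, at least 4.98-fold higher in testicular PGC (adjusted p = 9.89e-05). A second Pmaip1 probe gave a difference of -0.60, which is under 2-fold.

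Imprinted genes are those expressed from the allele of a single parent in somatic tissues, and alleles were not measured here. These genes moved both ways. Of 15 tested (of 26 listed), Phlda2, Slc22a18, Igf2 and Gnas were called higher in ovarian PGC and Mest and Usp29 in testicular PGC, with a median of 0.70. Slc22a18, a transporter gene beside Phlda2 on chromosome 7, was at 8.68 to 9.30 in ovarian and 5.47 to 6.27 in testicular PGC (difference 3.09, SE 0.21, adjusted p = 8.04e-05). Igf2, a growth factor, was at 11.14 and 11.09 and then 11.84 and 11.66 against 9.68 and 9.89 and then 9.48 and 9.70 (difference 1.74, SE 0.12, adjusted p = 8.62e-05). Mest, a paternally expressed hydrolase gene, was at 5.33 to 6.37 in ovarian and 7.53 to 8.21 in testicular PGC, and all 3 of its probes were called the same way. Of 14 genes of glycolysis and glucose uptake tested, Pgam1, Slc2a1 and Hk2 were called higher in testicular PGC (-1.44, -1.33 and -1.28), and Ldha, which makes lactate, in ovarian PGC (1.13). Of 6 adhesion genes tested, Sdc4, Gja1 and Cdh1 were called higher in testicular PGC (-2.66, -1.23 and -1.22). Dnmt3b, a de novo DNA methyltransferase, was higher in testicular PGC by a difference of -1.01, which was -0.99 without E12.5 ovarian replicate 1 or E12.5 testicular replicate 2 and -0.90 without E13.5 testicular replicate 1, within 2-fold each time. The Gja1 call was lost with cyclic loess, an offset of 50 and median scaling (-0.95 to -0.91), and the Dnmt3b call with the former 2 and normalization over the 8 arrays alone (-0.9993 to -0.92).

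Immediate early and heat shock genes, which respond to the handling of cells, gave 1 call each way among 9 tested. Such shares are near the 9.26% and 7.89% of all genes called higher in ovarian and testicular PGC. Fos was called higher in ovarian PGC (difference 1.38, adjusted p = 0.0351), and kept its call without E13.5 ovarian replicate 2 or E13.5 testicular replicate 2. Without any of the other 6 arrays the Fos call was lost, with differences of 0.95 to 1.46. Zfp36, which destabilises messenger RNA, was at 7.46 and 6.86 and then 8.74 and 8.19 in testicular PGC and at 5.06 to 6.11 in ovarian PGC (difference -2.28, adjusted p = 1.72e-04).

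The measured levels of the sexes stood further apart at E13.5 than at E12.5. The E13.5 arrays also had the higher upper quartiles of intensity, and the part of this in the counts by day was not tested. On the separate days, 503 genes were called higher in ovarian and 368 in testicular PGC at E12.5, and 1078 and 952 at E13.5. The median size of the difference over all genes was 0.38 at E12.5 and 0.58 at E13.5, and the correlation of the sex means across genes, which are not independent replicates, was 0.936 and 0.866. Of the 704 genes called higher in ovarian PGC over both days, 695 had the same sign on each day, 346 were past 2-fold on each day, and 535 (76.0%) had the larger difference at E13.5, with medians of 1.12 and 1.72. Of the 600 genes called higher in testicular PGC, 589 had the same sign, 271 were past 2-fold on each day and 460 (76.7%) had the larger difference at E13.5, with medians of -1.05 and -1.70. Calling on the mean of both days favours genes with the same sign on each, so this agreement is no separate result. The share of all genes tested with the larger difference at E13.5 was not computed.

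**Figure D4:**
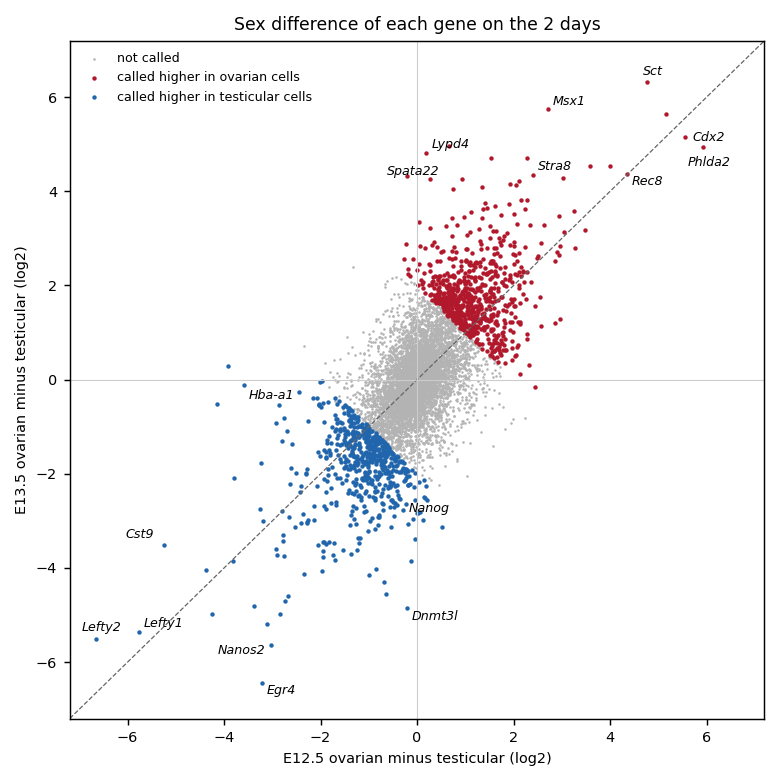
Ovarian minus testicular difference (log2) of each of the 7604 genes at E12.5 (x axis) and E13.5 (y axis), with genes called over both days in red and blue and the line of equal differences dashed. Sct, Msx1, Lypd4, Spata22, Dnmt3l, Egr4 and Nanos2 lie away from the dashed line toward a larger difference at E13.5, and Hba-a1 near 0 at E13.5.

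A test of the change itself called 378 genes (4.97%) whose difference moved toward ovarian PGC and 337 (4.43%) whose difference moved toward testicular PGC, and 2190 genes reached an unadjusted p under 0.05. The largest moves toward ovarian PGC were those of Lypd4, Inca1, Spata22, H4c18 and Cops8. Lypd4, a Ly6 family gene, was not detected on the E12.5 ovarian arrays (4.68 and 5.58), reached 9.03 and 10.68 at E13.5, and was detected on no testicular array (change 4.62, SE 0.86, adjusted p = 0.0229). Inca1, which binds cyclin A1, went likewise from 5.42 and 4.61 to 8.59 and 9.54 in ovarian PGC (change 4.53, SE 0.57, adjusted p = 0.0116). H4c18 encodes a histone H4, a family of near-identical copies that probes can share. Cops8 was uneven within the ovarian pairs (4.35 and 5.52, then 7.50 and 9.40) and even in testicular PGC (8.68 to 9.26).

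The largest moves toward testicular PGC were those of Dnmt3l, Upp1, Rrad, Atp2a1 and Pdzk1. Upp1, or uridine phosphorylase, was at 6.94 and 6.96 at E12.5 and at 10.62 and 10.77 at E13.5 in testicular PGC, and at 5.90 to 6.40 on the ovarian arrays (change -3.89, SE 0.28, adjusted p = 0.00399). Rrad, a small GTPase, was detected on the E13.5 testicular arrays alone, at 8.59 and 8.05. Atp2a1, a calcium pump of muscle, was at 8.04 and 8.52 on the E13.5 testicular arrays and at 4.71 to 6.04 on the other 6, and its difference over both days of -1.31 was -0.98, within 2-fold, without E12.5 testicular replicate 1. Each of these 5 genes had its highest levels on the E13.5 testicular arrays. The fits below that leave out arrays have a single array in a group, so lost changes and lost precision cannot be told apart. The counts of moved genes rest on every array but 1: leaving out any array other than E13.5 ovarian replicate 1 gave 65 to 111 and 90 to 160 genes, and without both brighter E13.5 arrays 0 and 0 were called by limma, with 1731 genes at an unadjusted p under 0.05. Without E13.5 ovarian replicate 1 the counts were 358 and 348.

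The called genes are set beside the E11.5 arrays here, as levels without a test. Those 2 arrays were unlike for globins, with Hba-a1 at 14.69 and 10.20 and Hbb-y at 14.43 and 10.42. The part of this in the counts below was not tested. Of the 704 genes higher in ovarian PGC, 366 had an ovarian mean at least 2-fold above E11.5 alone, 138 a testicular mean at least 2-fold below it alone, 15 both and 185 neither. Of the 600 genes higher in testicular PGC, 169 had a testicular mean at least 2-fold above E11.5 alone, 234 an ovarian mean at least 2-fold below it alone, 14 both and 183 neither. The share of all genes tested that passed these 2-fold cuts was not computed, so the counts describe the called genes alone. Stra8, Rec8, Figla and Prdm9 belonged to the first kind, with E11.5 levels of 4.30 to 6.13, although testicular Rec8 at E13.5 (7.10 and 7.13) also stood above E11.5. Sct, Gata2, Cdx2, Msx1 and Id1 were detected on both E11.5 arrays, at 7.83 to 9.91, and stood higher in ovarian and lower in testicular PGC. Lefty2, Nodal and Nanog had E11.5 means within 2-fold of the testicular mean and were lower or undetected in ovarian PGC, while Lefty1 had a testicular mean (10.82) more than 2-fold above E11.5 (9.35) as well. Nanos2, Egr4, Krt17, Pmaip1 and Dnmt3l were detected on neither E11.5 array and differed through the testicular arrays.

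**Figure D5:**
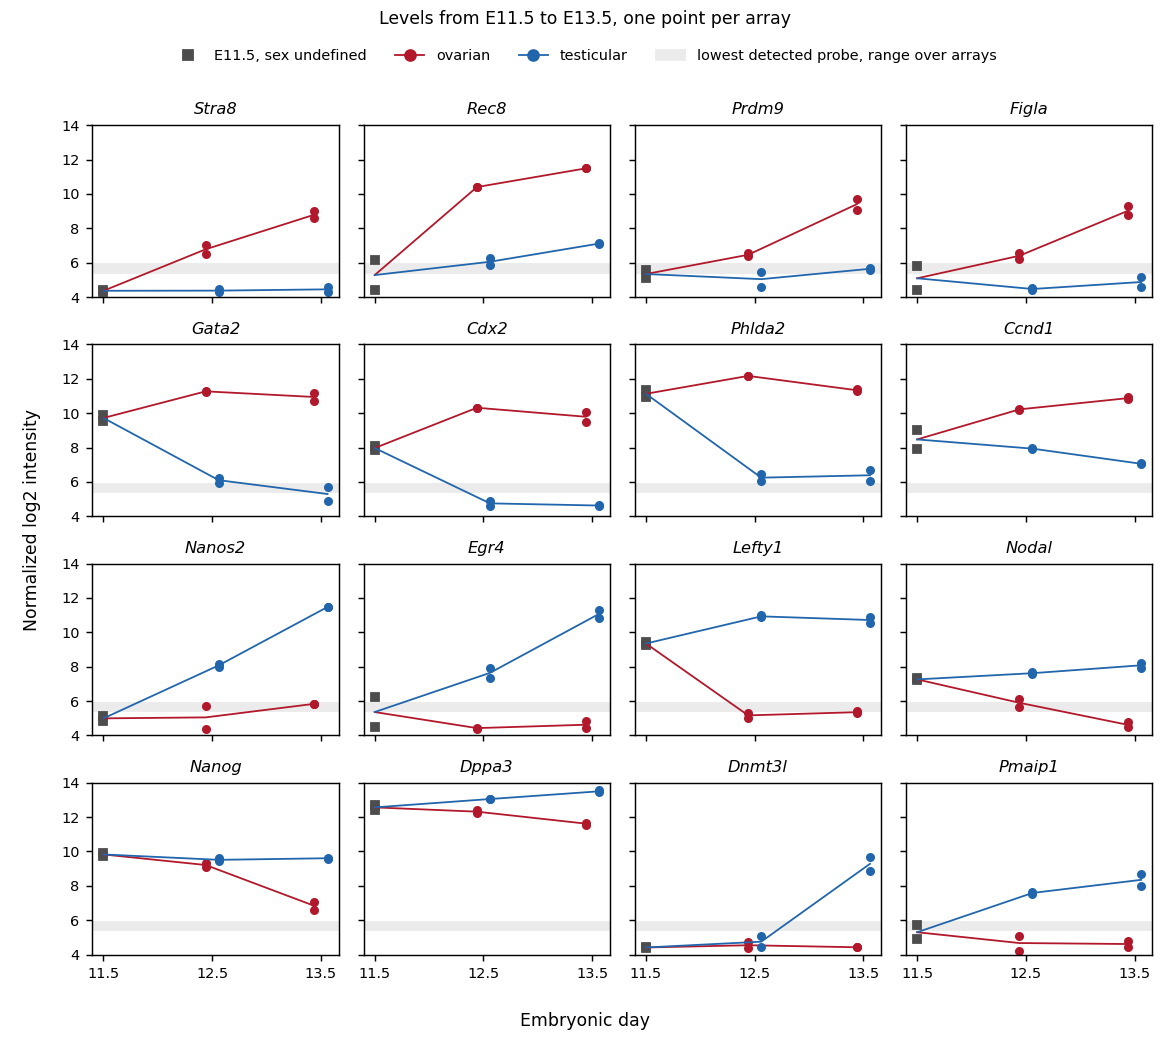
Normalized log2 intensity of 16 genes at E11.5 (squares, sex undefined), E12.5 and E13.5 (ovarian in red, testicular in blue, a point per array, lines through the means), with the range of the lowest detected level in grey. Stra8, Rec8, Prdm9 and Figla part through the ovarian arrays, Nanos2, Egr4 and Pmaip1 through the testicular arrays, and Gata2 and Cdx2 in both directions.

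The same contrast was fitted in the 8 arrays of E14.5 and E15.5 on the same 7604 genes. It was added after the data were seen. The main fit above had not included these later arrays. They were, however, quantile-normalized together with the earlier arrays, so the calls above are not independent of them. In this later contrast, 1616 genes (21.3%) were called higher in ovarian and 1608 (21.1%) in testicular PGC. Of the 704 genes called earlier, 388 (55.1%) were called higher in ovarian PGC again, 276 were not called and 40 were called higher in testicular PGC. Of the 600 genes, 387 (64.5%) were called higher in testicular PGC again, 204 were not called and 9 were called higher in ovarian PGC. Msx1, then detected on no testicular array, was at least 14.6-fold higher in ovarian PGC. Id1, M1ap and Figla had later differences of 5.11, 5.19 and 4.40, and Dnmt3l, Egr4, Piwil4 and Utf1 of -7.70, -6.59, -6.21 and -5.43. Rec8 and Phlda2 were not called later, with differences of 0.81 and -0.20, and Otx2 and Dlx3 were not called either. Lefty2 and Lefty1 were called again, detected on 2 of 4 testicular and no ovarian arrays, at least 1.05-fold and 1.12-fold higher in testicular PGC.

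Among the 40 genes that turned, Plekhb1, Pdlim4 and Chst8 had the lowest later differences and are named after their values were seen. Their differences were 1.24, 1.32 and 1.35 at E12.5 and E13.5 and -2.90, -2.88 and -2.61 at E14.5 and E15.5. Pdlim4, a cytoskeletal adaptor, was at 10.47 and 10.49 at E12.5 and at 9.12 and 9.22 at E13.5 in ovarian PGC and between 8.06 and 9.05 in testicular PGC. Ldha turned as well, from 1.13 to -1.53, so that it joined Pgam1 and Hk2, whose later differences were -3.54 and -3.51. Hba-a1 was among the 9 genes that turned toward ovarian PGC, with a later difference of 1.19.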

How the data were processed

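RNA of sorted germ cells was measured on MouseRef-8 v2 beadchips, of which 8 of 44 arrays were compared. The deposited intensity of each probe had been exported with BeadStudio 3.2, per the submitters' processing notes, with no scaling between arrays. The deposited detection p-value beside each intensity, per the file headers, is the rank of the probe among negative controls, which its steps put at 798 per array. The authors' deposited log2 values, for which RMA and lumi are named in the submitters' processing notes with no role, had the same sorted values in every array to within 0.00137, the same probe order as the intensities, and a median of 3.20. Their log base is not stated in the sources used here, and they served as an alternative alone. All 44 columns had a sample.

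Intensities were background-corrected with limma 3.58.1 (R 4.3.3) by normexp with an offset of 16 (the neqc function, which reads the background from the detection p-values) and then quantile-normalized over 44 arrays, which sets all arrays to 1 distribution. Of 25697 probes, 23978 have 1 gene symbol, none has several and 1719 have none. Symbols were updated through the Entrez gene for 23962 probes and the accession for 9, and kept for 7. Probes detected (p under 0.01) on at least 2 of the 8 arrays numbered 11452, of which 10779 had a symbol, and 371 of these were sex-linked. The brightest probe stood for each of 2010 genes with several. The fit had a mean for each sex and day (4 residual degrees of freedom, 3.18 of prior), and every p without another test named beside it is from limma's moderated test with Benjamini-Hochberg adjustment over 7604 genes. Only the fit and calling of the sex contrast were tried on simulated data, made on the normalized scale. Background correction, normalization, the detection filter, the bounds and the change between days were not tried so.

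Genes named are the 10 largest called differences each way without overlap between the sexes, the 5 largest each way of the change between days, up to 5 called members per list, and reference genes. The lists, the reference genes and the comparison itself were chosen with earlier results of these data known. Promoters are RefSeq's on GRCm38.p6, matched for 579 of 704, 471 of 600 and 6256 of 7604 genes. Replicate numbers were not treated as pairs, since same-numbered arrays correlated at -0.13 to 0.17 after removal of group means. Alternatives covered background, scaling, filter, variance, design, days, probes and single arrays. Slide positions are not given in the sources used here, so batches were not tested.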

Additional observations from a re-analysis of the deposited data

Results flagged for a closer look

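For 47 named genes the difference between the sexes itself differed between the days, by limma's test of the change (E13.5 difference minus E12.5 difference, log2, over 7604 genes). None of these changes was called without both brighter E13.5 arrays, a fit with a single array of each sex at E13.5. Where a gene was below detection in a sex or on a day, its change is a fitted value and no bound. Groups of 2 arrays are too small to test single arrays for standing apart.

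Among genes of meiosis and oocyte growth, the change toward ovarian PGC was 1.94 for Stra8, 2.45 for Ugt8a, 1.08 for Stag3, 2.34 for Prdm9, 2.78 for Mei1, 3.99 for Spata22, 2.44 for Dmrtc2 and 2.21 for Figla, while Nlrp5, an oocyte gene, changed by -2.14. Among BMP targets it was 3.03 for Msx1 and 1.203 for Id3. Among cell cycle and nucleotide genes it was 1.54 for Ccnd1, 2.95 for Ccne2, 1.73 for Ccne1, 2.04 for Tk1 and 1.68 for Rrm2. Sct changed by 1.54, Gnas by 1.59, Lypd4 by 4.62, Inca1 by 4.53, H4c18 by 3.71 and Cops8 by 3.63.

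Toward testicular PGC, fetal male germ cell genes changed by -2.60 (Nanos2), -3.16 (Nanos3) and -4.65 (Dnmt3l). Pluripotency genes changed by -2.47 (Nanog), -1.90 (Tcl1), -1.14 (Dppa3), -1.27 (Pou5f1), -1.14 (Sox2) and -1.69 (Gdf3), and Nodal by -1.74. Targets of ERK changed by -3.22 (Egr4) and -1.48 (Etv5). Further changes were -2.07 for Krt17, -2.13 for Vstm2l, -3.89 for Upp1, -3.72 for Rrad, -3.64 for Atp2a1, -3.60 for Pdzk1, -1.25 for Pgam1, -2.04 for Cdh1 and -2.19 for Zfp36.

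Genes of other cells changed as well. Cst9, Dhh and Amh, which Sertoli cells express, changed by 1.72, 1.48 and 1.33, and Hba-a1, an erythroid gene, by 3.47. Each of these 4 was higher in testicular samples at E12.5 by more than at E13.5.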

How the results depend on the processing

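The counts of 704 and 600 genes depend on the scale of low levels, on the arrays normalized together and on the days used. They were 142 and 132 with no background correction, 407 and 332 with an offset of 50, 438 and 449 with median scaling, 494 and 384 with cyclic loess, and 947 and 824 with the authors' log2 values. They were 1810 and 1765 by the adjusted p alone, 412 and 314 from the E12.5 arrays alone, and 1104 and 986 from the E13.5 arrays alone. Normalization over the 8 arrays alone gave 479 and 411, and kept 452 and 381 of the main calls. Leaving out single arrays gave 675 to 734 and 574 to 625. The ovarian share of the calls was between 49.4% and 56.7% under every alternative run, against 54.0%.

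The counts of 378 and 337 genes whose difference changed between the days were 151 and 163 with no background correction, 52 and 179 with median scaling, 207 and 208 with no detection filter, and 65 to 358 and 90 to 348 without single arrays. Without both brighter E13.5 arrays, chosen after seeing the data, they were 0 and 0. The cause of these moves was not tested. With the replicate number as a block the counts were 701 and 596, and the block ended the calls of Fos and Hbb-y and of no other named gene. The sign turned for Inca1 (-0.20) and Atp2a1 (0.51) in the E12.5 arrays alone and for Hbb-y (0.29) in the E13.5 arrays alone. With no background correction, 38 of 101 named genes lost their call and none turned. Genes listed as not detected have a bound only.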
